A study of Mus musculus with 4 samples.

Results

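The 8 genes described here encode proteins of the complement system or its receptors. They were chosen by name and are C1qa, C1qb, C1qc, C3, Cfb, Cfp, C3ar1 and C5ar1, which are 8 of the 19001 genes listed for all 4 libraries. Each library came from the periwound skin of 1 C57/BL6j mouse, 6 weeks old, on day 7 after punch wounding, and was made by droplet single-cell RNA sequencing, which counts unique molecular identifiers (UMIs) per gene and cell. The 2 libraries titled hucMSC-Exo are from wounds injected with 100 µg of exosomes from human umbilical cord mesenchymal stem cells, and the 2 titled Control are from wounds that received buffer. All 4 mice carried the same wound, and no unwounded skin was analysed here.

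Every direction between the groups rests on the sample titles, because the lettering of the matrix files groups these libraries differently. The tissue field of the labels names the gut, while the cell type field names skin. Keratinocyte markers gated 33 to 94 cells per library, fibroblast markers gated 1 cell in all and endothelial markers gated 0, so the deposited cells are mostly leukocytes. Of 7178 deposited cells, 6443 were kept, with 4779405 to 11243740 UMIs per library. Any 2 libraries shared 0 to 2 cell barcodes.

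Complement is a protein cascade that tags targets and calls in leukocytes. The C1q chains assemble into the recognition unit of the classical pathway. C3 is the central component, factor B (Cfb) is the protease subunit of the alternative pathway's C3 convertase, and properdin (Cfp) stabilises that convertase. The fragments C3a and C5a act on the receptors encoded by C3ar1 and C5ar1. In skin, tissue macrophages are a known source of C1q, and neutrophils are known responders to C5a.

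Cells were assigned to gates by marker lists that hold none of the 8 genes. A cell needed at least 3 detected markers of a list, and at least 2 more than of any other list. The macrophage-monocyte gate held 1374 cells, the neutrophil gate 863, the lymphocyte gate 2107, the dendritic cell gate 63, the keratinocyte gate 212 and the basophil-mast gate 67, and 1756 cells stayed ungated. In the macrophage-monocyte, neutrophil, dendritic cell and lymphocyte gates, 3 to 5 of the gate's own markers stood among its 10 leading genes and none of another gate's did. The rule selects cells on these same markers, so this describes the gates and is no separate check of them. The keratinocyte gate stood out less. Its 10 leading genes were enriched 3.76-fold to 5.55-fold, against 8.93-fold to 12.2-fold in the lymphocyte gate and 63.9-fold to 139-fold in the neutrophil gate. Whether the cells of the keratinocyte gate are keratinocytes was not tested, so its name stands for the markers only. The level of a gene (CPM) is its UMI count in a gate and library, scaled to a gate total of 1000000.

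In the mouse genome mm10, the C1q genes lie side by side on the minus strand of chromosome 4, within 18675 bases from 136880129 to 136898803. C1qb comes first (136880129 to 136886187), then C1qc (136889804 to 136893065) and C1qa (136895917 to 136898803), with 3616 and 2851 bases between them. C3 (57203970 to 57228136) and Cfb (34856374 to 34862518) are on chromosome 17. Cfp is on chromosome X (20925454 to 20931555), C3ar1 on chromosome 6 (122847138 to 122856161) and C5ar1 on chromosome 7 (16246743 to 16259540). All 8 are protein-coding genes in the GENCODE annotation, on the minus strand.

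The stretches before the starts of C1qb, C1qc and C3ar1 are shown because the C1q genes had a steep gradient between macrophage classes and C3ar1 separated macrophages from neutrophils. RefSeq promoter windows of 300 bases (GRCm38.p6, which is mm10) were found for 6 of the 8 genes. Capitals mark the letters TGCTGA, a core motif of MAF-family factors, or GAGGAA, the core bound by PU.1, on either strand (TCAGCA and TTCCTC on the other). Each stretch ends before the first annotated base of its gene and is written 5′ to 3′ on the minus strand, at chr4:136886201-136886450, chr4:136893066-136893164 and chr6:122856162-122856407.
C1qb: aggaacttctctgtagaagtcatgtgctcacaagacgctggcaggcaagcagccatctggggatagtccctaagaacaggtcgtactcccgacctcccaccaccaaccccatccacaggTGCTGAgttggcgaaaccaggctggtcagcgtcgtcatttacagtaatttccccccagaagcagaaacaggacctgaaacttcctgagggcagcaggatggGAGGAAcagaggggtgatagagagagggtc
C1qc: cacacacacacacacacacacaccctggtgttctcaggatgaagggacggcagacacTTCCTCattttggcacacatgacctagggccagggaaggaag
C3ar1: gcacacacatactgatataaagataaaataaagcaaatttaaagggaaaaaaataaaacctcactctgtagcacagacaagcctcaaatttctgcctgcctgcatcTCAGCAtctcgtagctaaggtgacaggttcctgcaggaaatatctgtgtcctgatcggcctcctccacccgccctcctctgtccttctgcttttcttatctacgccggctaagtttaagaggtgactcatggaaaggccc

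Over the 300-base windows, GAGGAA occurred in 3 of the 6 genes (C1qb, C1qc and Cfp) and in 28.3% of 32851 promoters. TGCTGA occurred in 4 of the 6 (C1qb, C3, C3ar1 and C5ar1) and in 19.5% of the promoters. The C1qb window alone held both, without overlap, at positions -131 and -30 from the RefSeq start. A match describes these letters and not a binding site.

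C1q transcripts were carried by the macrophage-monocyte gate, which supplied 87.2% to 97.7% of the C1qa UMIs of a library. The level of C1qa in this gate was 2465 CPM in Control 1, 1379 in Control 2, 1122 in hucMSC-Exo 1 and 1657 in hucMSC-Exo 2. C1qb was at 3011, 1335, 1438 and 1623 CPM in the same order, and C1qc at 1424, 853, 629 and 934 CPM. Control 1 was the highest library for each of the 3 chains. A UMI of C1qa was found in 71.1%, 65.1%, 53.8% and 53.9% of the gate's cells.

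The lymphocyte gate gives a background for these shares, which the gate rule selects to be low. Cells that also carried markers of another list could fall to the ungated cells. There C1qa was found in 5.54% to 9.73% of cells per library, at 56.4 to 132 CPM. What the ungated cells are was not tested. Lymphocytes should not make C1q. In their gate C1qa was found in 0.231% to 1.38% of cells per library. C1qb was found in 0.154% to 3.37% and C1qc in 0.328% to 0.482%, at levels of at most 7.35 CPM. All 3 chains together were found in 0 of 2107 lymphocyte-gate cells and in 771 of 1374 macrophage-monocyte cells (56.1%). With the libraries pooled, the former allows up to 0.142% of cells with such a combination. The median cell held 4199 UMIs in the lymphocyte gate and 7418.5 in the macrophage-monocyte gate. After every cell was thinned to 1000 UMIs, C1qa was still found in 39.4% to 61.3% of macrophage-monocyte cells and in at most 0.463% of lymphocyte-gate cells. Leaving out shallower cells for this removed 27 and 6 cells from these gates.

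The neutrophil gate, with a median of 2143 UMIs per cell, had 16 C1qa, 15 C1qb and 4 C1qc UMIs in 863 cells. These were 0.844% to 2.50% of cells per library for C1qa, and after thinning 0 to 1.41%. Of the 863 cells, 2 cells of Control 2 held all 3 chains. The keratinocyte gate had 25 C1qa UMIs in 8 of 212 cells, at 16.1, 90.2, 5.50 and 7.64 CPM, and 6 of its cells held all 3 chains. No doublet caller was run here, and the parts of doublets and of free RNA in these UMIs were not tested.

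**Figure D1:**
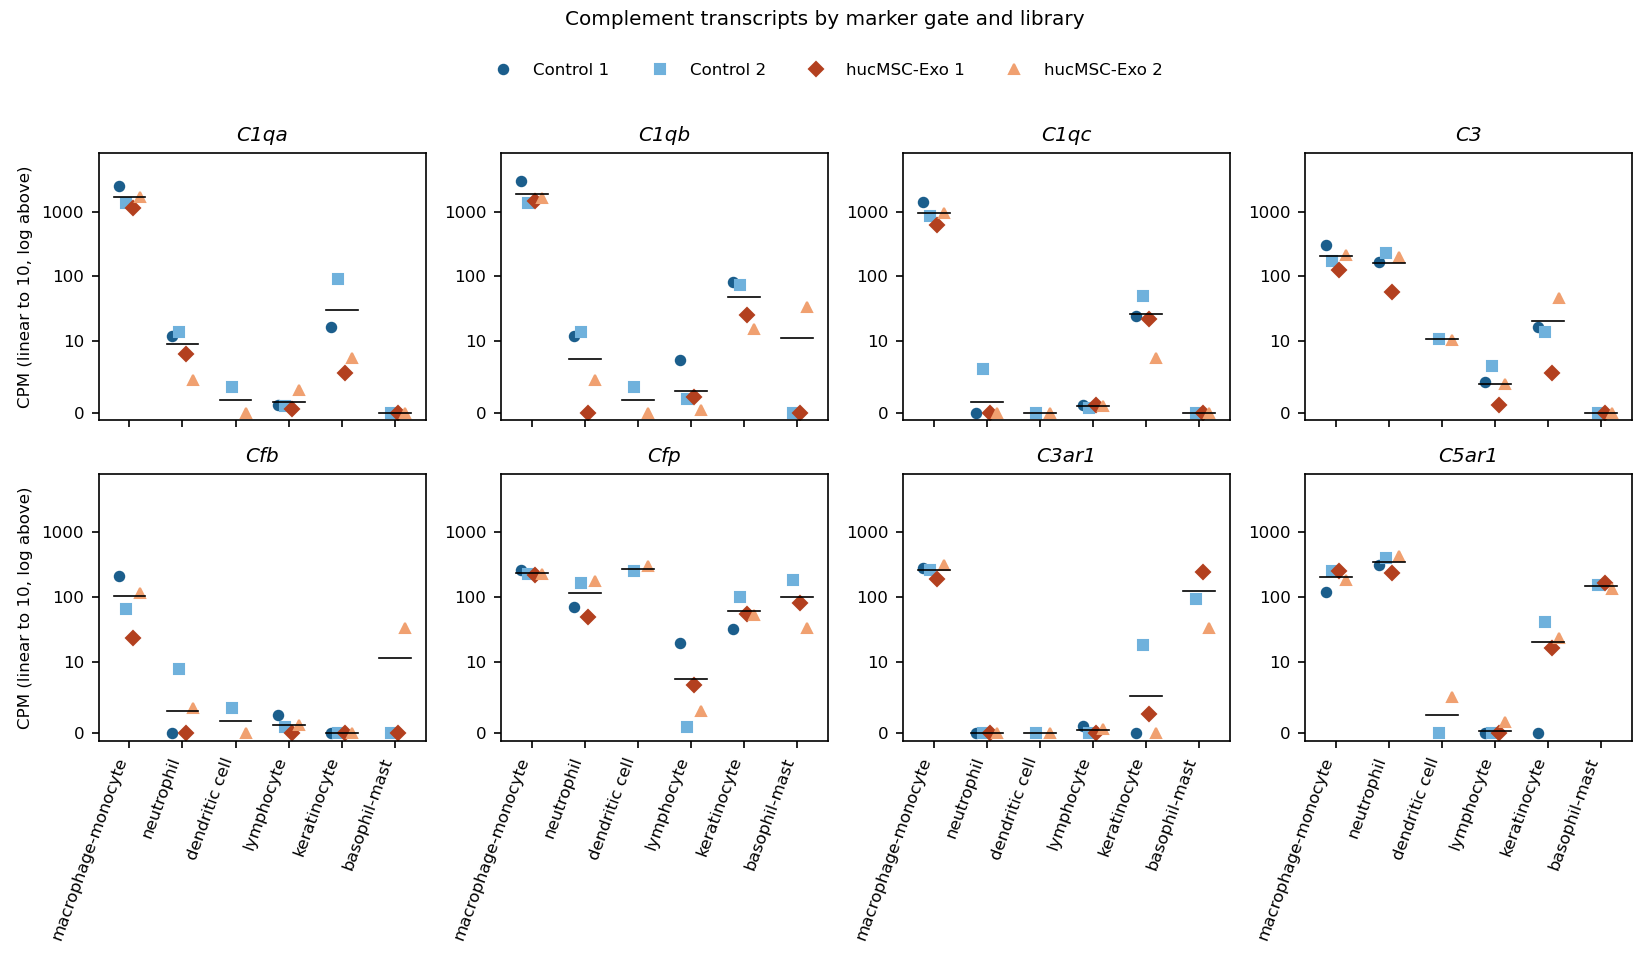
Each panel plots 1 gene's CPM (vertical axis, linear to 10 and logarithmic above) by marker gate, with 1 point per library of at least 10 gated cells and a bar at their mean. C1qa, C1qb and C1qc stand between 629 and 3011 CPM in the macrophage-monocyte gate, C3ar1 is at 0 in the neutrophil gate, and C5ar1 has its highest mean there, above the macrophage-monocyte gate in 3 of 4 libraries.

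For tests between gates, UMIs were summed per library and gate and fitted with edgeR's quasi-likelihood method, with the library as a block and Benjamini-Hochberg adjustment over all genes tested. Between the macrophage-monocyte and neutrophil gates, 5 of the 8 genes were higher in the former and 1 was lower. The background was high, since 23.1% of 10477 genes were called higher and 22.7% lower. The 8 genes had a median log2 fold change of 5.40, and all genes tested 0.14. C1qa was higher by a log2 fold change of 7.09 ± 0.38 (SE, edgeR adjusted p = 4.27e-15), C1qb by 7.17 ± 0.40 and C1qc by 8.23 ± 0.46. Scaling by library totals in place of TMM moved the median of all genes from 0.14 to 0.60, and the share of called genes that were higher became 68.4%.

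Of the C3 UMIs of a library, 60.6% to 86.5% were in the macrophage-monocyte gate and 2.28% to 25.3% in the neutrophil gate. C3 stood at 306, 174, 126 and 212 CPM in the macrophage-monocyte gate, in the same library order. In the neutrophil gates it stood at 166, 227, 57 and 196 CPM, so the ranges overlapped. The difference was a log2 fold change of -0.07 ± 0.29 (edgeR adjusted p = 0.866), and its sign turned with scaling by library totals (0.26). C3 was found in 251 of 863 neutrophil-gate cells and in 41 of 2107 lymphocyte-gate cells. Neutrophils exceeded lymphocytes by a log2 fold change of 5.98 ± 0.36 (edgeR adjusted p = 1.42e-14).

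Cfb was the most uneven gene between libraries within the macrophage-monocyte gate, at 209, 65.1, 23.3 and 116 CPM. Control 1 was the highest and hucMSC-Exo 1 the lowest, and the share of cells with a UMI ran from 9.23% to 55.2%. In neutrophils Cfb had 10 UMIs in 863 cells, and the macrophage-monocyte gate was higher by a log2 fold change of 3.72 ± 0.43 (edgeR adjusted p = 3.54e-08). In hucMSC-Exo 1, where the neutrophil gate had 0 Cfb UMIs, the macrophage-monocyte level lay below the 24.4 CPM that 3 UMIs would give, so no fold could be read there.

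Cfp was the most even of the 8 genes within the macrophage-monocyte gate, at 258, 227, 222 and 227 CPM. It was also the member found in dendritic cells. In the 2 libraries with at least 10 dendritic cells, Cfp was at 251 CPM (Control 2, 30 cells) and 301 CPM (hucMSC-Exo 2, 21 cells), and 35 of 63 dendritic cells held a UMI. Neutrophils had 71.2, 164, 48.8 and 180 CPM, and did not differ from the macrophage-monocyte gate past the threshold (log2 fold change of macrophage-monocyte over neutrophil 0.31 ± 0.39, edgeR adjusted p = 0.541). The 2 libraries with the fewest neutrophils, Control 1 with 40 cells and hucMSC-Exo 1 with 61, had the lowest Cfp there.

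Compared with the macrophage-monocyte gate, dendritic cells had 7 of the 8 genes lower, where 8.90% of genes were called lower and 6.00% higher. The 7 genes had 0 to 3 UMIs in each dendritic sum fitted, and passed the filter on low counts through other gates. Their number is therefore no support beyond the UMI counts, and the share over all genes is not a like background. Cfp was the exception (log2 fold change 0.25 ± 0.50, edgeR adjusted p = 0.807). C1qc and C3ar1 had 0 UMIs in the 63 dendritic cells, which allows up to 4.76% of cells with a UMI when the libraries are pooled. C3 had 7 UMIs in these 63 cells and C5ar1 had 2. Only the dendritic sums of Control 2 and hucMSC-Exo 2 entered the fit, where C3 had 3 and 2 UMIs and C5ar1 had 0 and 1. The lower level was a log2 fold change of -4.57 ± 0.61 for C3 and -6.87 ± 0.85 for C5ar1 (edgeR adjusted p = 2.06e-06 and 5.32e-07).

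The C3a receptor was found in the macrophage-monocyte gate and not in neutrophils, while the C5a receptor was found in both. C3ar1 was at 284, 261, 192 and 316 CPM in the macrophage-monocyte gate, where 64.4%, 68.7%, 56.5% and 61.7% of cells held a UMI. In the neutrophil gate it had 0 UMIs in each library, 0 of 863 cells, which allows up to 0.348% of such cells with a UMI at this depth (median 2143 UMIs) and sets no limit on cells that express the gene. Against the level that 3 UMIs would give over all 4 neutrophil sums, 1.51 CPM, the macrophage-monocyte level was at least 176-fold higher. Per library this bound was at least 7.97-fold, 57.8-fold, 7.89-fold and 118-fold higher, the low bounds being those of the libraries with few neutrophils. The difference passed the test (edgeR adjusted p = 4.83e-12). With 0 neutrophil UMIs, C3ar1 entered that fit only through the macrophage-monocyte gate, where it is high. The call therefore adds no support beyond these bounds. C5ar1 was found in 476 of the same 863 neutrophils.

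C5ar1 was at 308, 401, 236 and 431 CPM in neutrophils, where 45.0%, 54.9%, 36.1% and 58.6% of cells held a UMI. In the macrophage-monocyte gate it was at 121, 253, 250 and 181 CPM, in 45.4%, 60.0%, 63.8% and 48.3% of cells. The level per UMI was higher in neutrophils in 3 of 4 libraries, hucMSC-Exo 1 being the exception. The log2 fold change of macrophage-monocyte over neutrophil was -1.11 ± 0.29 (edgeR adjusted p = 0.00200). The call was lost with DESeq2 (-0.99, adjusted p = 0.148) and with edgeR without hucMSC-Exo 2 (-0.67, adjusted p = 0.0812). The ranges of the shares overlapped although the median neutrophil held fewer UMIs, and after thinning to 1000 UMIs the shares were 18.4% to 35.0% in neutrophils and 11.5% to 21.2% in macrophage-monocyte cells. In lymphocytes C5ar1 had 5 UMIs in 2 of 2107 cells.

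Within the macrophage-monocyte gate, 40.6% of cells held both receptors, 23.3% held C3ar1 alone and 14.8% C5ar1 alone. Both receptors were also found in the basophil-mast gate of 67 cells, with 16 C3ar1 UMIs in 13 cells and 23 C5ar1 UMIs in 15 cells. That gate was not tested.

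**Figure D2:**
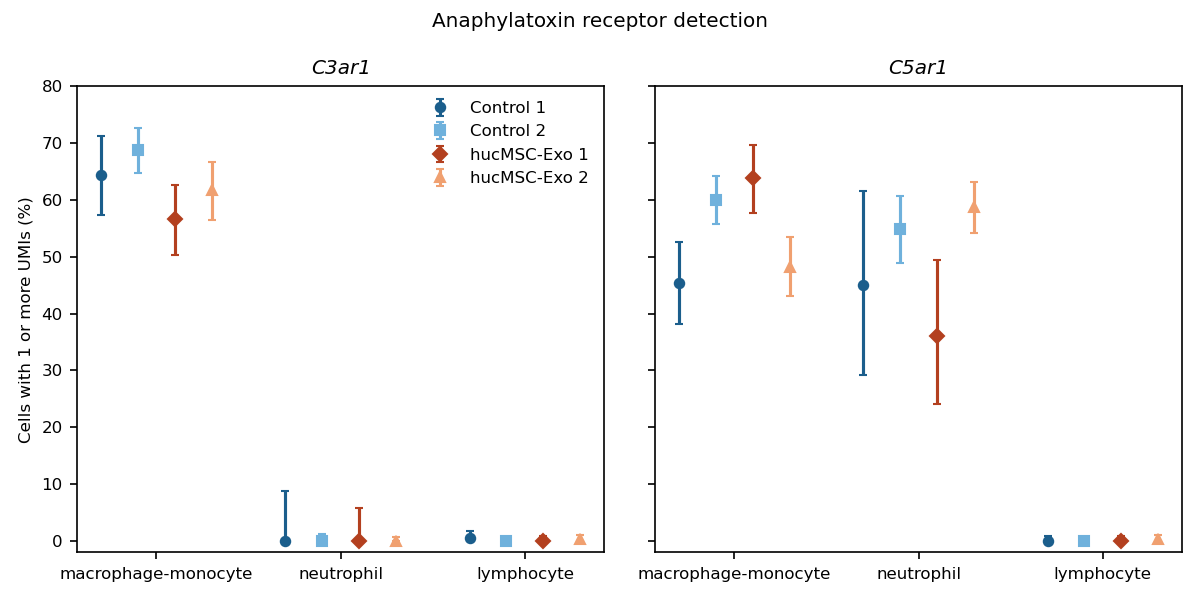
The share of cells with 1 or more UMIs of C3ar1 (left) and C5ar1 (right) is plotted in percent by gate, with 1 point per library and 95% exact Clopper-Pearson intervals, which cover counting error only. C3ar1 was at 0 in all 4 neutrophil gates, while C5ar1 was found in 36.1% to 58.6% of the same cells.

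Between neutrophils and lymphocytes, 6 of the 8 genes were higher in neutrophils, where 25.2% of genes were called higher and 31.5% lower. With library totals the median of all genes moved from -0.33 to -1.01, and 25.6% of the called genes were higher. C5ar1 had the steepest difference (9.89 ± 0.48, edgeR adjusted p = 9.62e-17), then C3 and Cfp (5.09 ± 0.51, edgeR adjusted p = 8.88e-10). C1qa, C1qb and Cfb were also called, but on 16, 15 and 10 neutrophil UMIs. The calls of C1qb and Cfb were lost without Control 2, which held 9 of the C1qb and 6 of the Cfb UMIs (edgeR adjusted p = 0.0852 and 0.143), and that of Cfb also without the library term (0.0590). C1qc was not called (edgeR adjusted p = 0.105) except without hucMSC-Exo 2 (2.85, edgeR adjusted p = 0.0184), and C3ar1 had 0 UMIs in neutrophils and 4 in lymphocytes.

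The C1q chains differed between 2 sub-gates of the macrophage-monocyte gate. Markers of tissue-resident macrophages such as Mrc1, Folr2 and Lyve1 gave a resident-like gate of 367 cells, and markers of recently arrived monocytes such as Ly6c2, Chil3 and Plac8 gave a monocyte-like gate of 428 cells. The other 539 cells entered neither of these nor the osteoclast-like sub-gate described later, and held 6472 of the gate's 15711 C1qa UMIs, at 1072 to 2611 CPM per library. Values are in the order Control 1, Control 2, hucMSC-Exo 1, hucMSC-Exo 2. C1qa was at 3807, 2750, 2449 and 4136 CPM in resident-like cells. It was at 640, 249, 113 and 117 CPM in monocyte-like cells of the same libraries, so the ranges did not overlap. C1qb was at 4454, 2339, 2958 and 3948 CPM against 931, 408, 234 and 214 CPM. C1qc was at 2354, 1730, 1358 and 2333 CPM against 351, 160, 69.8 and 84.9 CPM.

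Resident-like cells had 5 of the 8 genes higher and none lower, where 15.0% of 5885 genes were called higher and 14.7% lower. The sub-gate markers were chosen with earlier results of these data known. These calls therefore describe the sub-gates and are no separate test of them. With library totals 61.7% of the called genes were higher and again 5 of the 8 genes were called. The log2 fold change was 3.76 ± 0.29 for C1qa, 3.05 ± 0.24 for C1qb and 3.66 ± 0.25 for C1qc (edgeR adjusted p = 9.78e-08, 1.34e-07 and 2.51e-08). C3ar1 was higher by 0.85 ± 0.20 and Cfp by 0.68 ± 0.19 (edgeR adjusted p = 0.00368 and 0.0119). The Cfp call was lost without Control 1 or without hucMSC-Exo 2 (edgeR adjusted p = 0.0639 and 0.0552), and that of C3ar1 without the library term (0.0534). C3 (-0.35 ± 0.18), Cfb (-0.33 ± 0.30) and C5ar1 (-0.16 ± 0.22) did not pass the test. C3 passed it as lower in resident-like cells when cells with more than 3000 genes were kept (-0.55, edgeR adjusted p = 0.0119) and when 4 markers were required (-0.52, edgeR adjusted p = 0.0236).

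All 3 chains were found together in 90.9%, 89.2%, 85.2% and 91.3% of resident-like cells, and in 42.1%, 21.7%, 5.80% and 10.1% of monocyte-like cells. The make-up of the C1q UMIs shifted as well. C1qb gave 42.0%, 34.3%, 43.7% and 37.9% of them in resident-like cells and 48.4%, 49.9%, 56.2% and 51.4% in monocyte-like cells, so its part was higher in the monocyte-like gate of 4 of 4 libraries. This shift is a description, and its source was not tested. The median resident-like cell held 101, 59.9, 57.8 and 96.9 C1q UMIs per 10000, and the median monocyte-like cell 3.60 in Control 1 and 0 in the other libraries. C1q made up 0.676% to 1.06% of all UMIs of the resident-like gate.

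**Figure D3:**
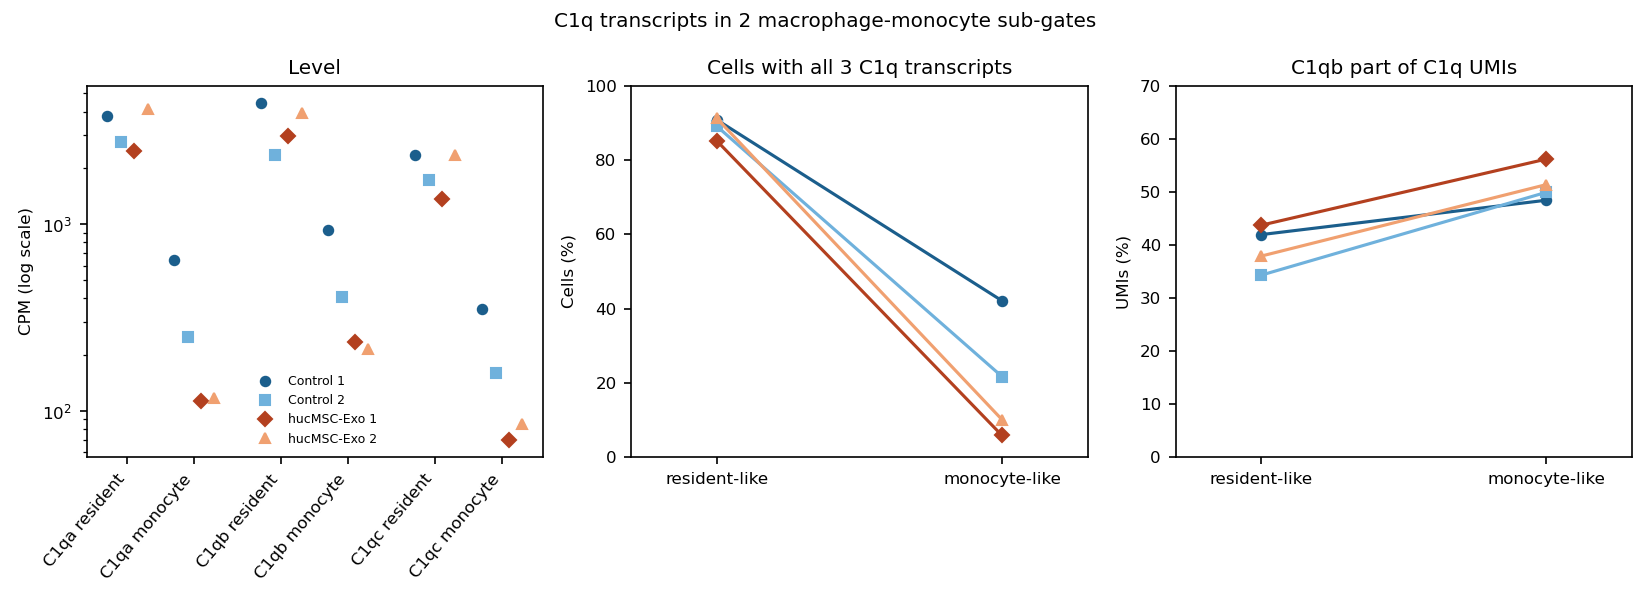
From left to right, the panels plot the CPM of each C1q gene (log scale), the percent of cells with all 3 C1q transcripts and the percent of C1q UMIs that are C1qb, in the resident-like and monocyte-like gates, with 1 point per library and, in the last panels, lines joining a library's gates. Levels and co-detection fell from resident-like to monocyte-like cells in 4 of 4 libraries, while the part of C1qb rose.

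Markers of osteoclast-like macrophages such as Ctsk, Acp5 and Mmp9 gave another sub-gate with 1, 25, 11 and 3 cells, and only Control 2 and hucMSC-Exo 1 entered its tests. C1qa stood at 890 and 888 CPM in them, between their resident-like (2750 and 2449) and monocyte-like (249 and 113) levels. Against resident-like cells, 4 of the 8 genes were lower (C1qa, C1qb, C1qc and C3ar1), where 4.94% of genes were called lower and 3.59% higher. Against monocyte-like cells, the 3 C1q genes were higher and C5ar1 lower (4.06% of genes higher and 4.55% lower, and with library totals 58.5% of the called genes higher). These calls were fragile. Against resident-like cells none of the 8 genes was called with 4 markers required (edgeR adjusted p of C1qb 0.0590) or without hucMSC-Exo 1 (0.0585), C1qa and C1qc were lost without Control 2 (0.129 and 0.140), and C1qa was lost without the library term (0.0530). Against monocyte-like cells C1qb and C5ar1 were lost with 4 markers, without Control 2, without hucMSC-Exo 1 and without the library term (edgeR adjusted p from 0.0594 to 0.398), and C1qa in the last 2 of these (0.0644 and 0.0748). The limit of 3000 genes per cell also moved the values. With cells above it kept, the gate held 7, 87, 24 and 7 cells and C1qa stood at 266 and 318 CPM in Control 2 and hucMSC-Exo 1. No C1q gene then differed from monocyte-like cells past the threshold (C1qa 0.43, edgeR adjusted p = 0.322), and against resident-like cells all 8 genes were called lower, as were 1353 of 7456 genes tested in that fit.

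The groups were compared to ask whether the exosomes changed these genes. In the macrophage-monocyte gate the values of Control and hucMSC-Exo overlapped for each of the 8 genes, and 0 of 8518 genes tested (0%) passed the threshold, with 90 at an unadjusted p under 0.05 and 0 called by DESeq2. Of those genes, 23.1% had groups that did not overlap. C1qa was at 1922 ± 768 CPM in Control and 1389 ± 378 in hucMSC-Exo (SD, n = 2 each), a log2 fold change of -0.43 ± 0.34 (SE, edgeR adjusted p = 1.00). The other log2 fold changes were -0.45 ± 0.37 for C1qb, -0.50 ± 0.33 for C1qc, -0.46 ± 0.36 for C3, -0.93 ± 0.71 for Cfb, -0.06 ± 0.27 for Cfp, -0.06 ± 0.30 for C3ar1 and 0.26 ± 0.40 for C5ar1. For 7 of the 8 genes, all but C1qc, the sign turned when Control 1 was left out.

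In resident-like cells, where the C1q genes were highest, the log2 fold change was -0.01 ± 0.34 for C1qa, 0.00 ± 0.37 for C1qb and -0.16 ± 0.34 for C1qc. It was -0.38 ± 0.37 for C3, 0.24 ± 0.67 for Cfb, -0.10 ± 0.38 for Cfp, -0.12 ± 0.33 for C3ar1 and -0.07 ± 0.34 for C5ar1. The call count was 0 of 5536 genes (0%), with 82 at an unadjusted p under 0.05 and 0 by DESeq2. No gene of the 8 had groups that did not overlap, where 23.7% of genes tested had. In neutrophils only C3, Cfp and C5ar1 passed the filter on low counts. Their log2 fold changes were -0.45 ± 0.50, 0.02 ± 0.56 and 0.02 ± 0.42, with 0 of 3436 genes called (0%), 46 at an unadjusted p under 0.05 and 0 called by DESeq2. None of the 3 had groups that did not overlap, against 26.6% of the genes tested.

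The monocyte-like gate was added after its values had been seen. There the C1q levels of the groups did not overlap. C1qa was at 640 and 249 CPM in Control and at 113 and 117 in hucMSC-Exo, a log2 fold change of -1.83 ± 0.44. C1qb gave -1.47 ± 0.39 and C1qc -1.59 ± 0.41. The unadjusted p of C1qa was 0.00303, and with edgeR's adjustment over 5863 genes it was 0.999. Of the genes tested there, 31.4% had groups that did not overlap, and 4 of the 8 did (the C1q genes lower and Cfp higher in hucMSC-Exo). Again 0 genes were called (0%), with 145 at an unadjusted p under 0.05, while DESeq2 called 3 genes and none of the 8. The 3 C1q genes were called when no filter on low counts was used (edgeR adjusted p = 0.000191, 0.00368 and 0.0108). In that fit 34 of 13424 genes were called. No other alternative with all 4 libraries called them. Without Control 2 the log2 fold changes were -2.35 for C1qa, -1.93 for C1qb and -2.04 for C1qc. Those of Cfb and C5ar1 also grew there, to -1.89 and 1.62. Leaving out Control 2 leaves a single Control library, the one with the highest C1q, which is then assumed to vary like the hucMSC-Exo libraries. Without Control 1, which also leaves a single Control library, the log2 fold changes shrank to -1.02 for C1qa, -0.77 for C1qb and -0.93 for C1qc. The other genes had log2 fold changes of -0.26 ± 0.40 for C3, -1.27 ± 0.59 for Cfb, 0.17 ± 0.27 for Cfp, 0.27 ± 0.37 for C3ar1 and 0.25 ± 0.54 for C5ar1.

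Whether the group difference of a gene differed between the macrophage-monocyte and neutrophil gates was tested as an interaction. None of the 8 genes was called, and 1 of 7209 genes was (0.0139%), Apod, which encodes a lipid-binding apolipoprotein and is named here after its value was seen. The interaction was -0.20 ± 0.59 for C3, 0.06 ± 0.61 for Cfp and -0.20 ± 0.55 for C5ar1. The C1q genes and Cfb rest there on the few neutrophil UMIs given above, and C3ar1, with 0 UMIs in neutrophils, gave no usable estimate.

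**Figure D4:**
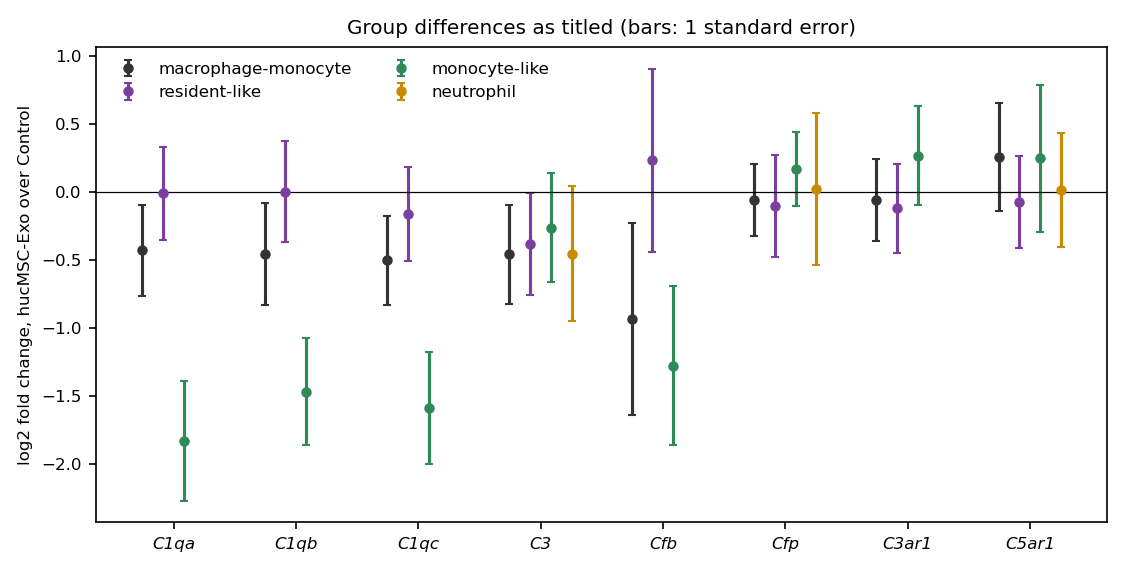
The log2 fold change of hucMSC-Exo over Control, as titled, is plotted for each gene and gate with bars of 1 standard error (edgeR, 2 libraries per group). Most bars cross or come near 0, and the C1q genes of the monocyte-like gate lie lowest, at -1.83, -1.47 and -1.59, none with an adjusted p under the threshold.

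A list of 48 other complement genes was also read, of which 38 were listed for all 4 libraries. Between macrophage-monocyte cells and neutrophils 15 could be tested, 4 were higher and 6 lower. Of all genes tested there, 23.1% were called higher and 22.7% lower. Among the higher were Lrp1, an endocytic receptor (4.20 ± 0.36), and C4b, a classical pathway component (1.69 ± 0.58). Among the lower were the regulators Clu (-3.05 ± 0.80) and Serping1, the C1 inhibitor (-1.59 ± 0.53), and the C1s protease gene C1s1 (-2.08 ± 0.66). Clu, Serping1 and C1s1 were each below 10 CPM over all kept cells in every library, with C1s1 at 1.67 to 3.74 CPM. Their UMI counts in neutrophils are not given here. The part of free RNA in these calls was not tested, so they do not establish expression by neutrophils. The median of the 15 was -0.60, against 0.14 over all genes.

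Neutrophils exceeded lymphocytes in 10 of 15 of these genes and were lower in 1, with a median of 1.98 against -0.33 over all genes. Of all genes tested, 25.2% were called higher in neutrophils and 31.5% lower. C5ar2, the second C5a receptor, had a log2 fold change of 8.99 ± 0.66 and Itgam, the alpha chain of complement receptor CR3, of 7.63 ± 0.40. Dendritic cells were lower than macrophage-monocyte cells in 7 and higher in 1 of 15, Clu (7.22 ± 0.57). In that comparison 8.90% of all genes were called lower and 6.00% higher. Resident-like cells exceeded monocyte-like cells in 3 of 10 tested, among them C4b (1.32 ± 0.35) and C1qbp (0.78 ± 0.27), and were lower in 2, the integrin genes Itgax (-1.51 ± 0.38) and Itgb2 (-1.32 ± 0.19). Here 15.0% of all genes were called higher and 14.7% lower. No other complement gene was called between the groups in the macrophage-monocyte (12 tested), neutrophil (6), resident-like (9) or monocyte-like (10) gates.

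Over 27 sums of library and gate, the genes with levels most like C1qa were Ms4a7 (Pearson r = 0.94), Trem2 (0.93) and Pf4 (0.93). Among those most like C1qb were Trem2 (0.92) and Ms4a7 (0.91), and those most like C1qc were Trem2 (0.95), Ms4a7 (0.95) and Tmem37 (0.93). Ms4a7 and Pf4 are markers used by the gates. Among the genes most like C3 was Slc11a1 (0.94). Cfb was most like Cd36 (0.84), Cfp like Spi1, which encodes PU.1 (0.90), C3ar1 like Slc7a8 (0.95) and C5ar1 like Rab32 (0.94). These are descriptions over log2(CPM + 1) of 7053 genes, and sums of 1 library share its depth and free RNA.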

How the data were processed

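The deposited files hold raw UMI counts per gene and cell, which the authors made with Cell Ranger 6.1.2 on mm10, one matrix per mouse. They hold fewer cells than the study states per mouse. The study's methods name DoubletFinder, whether before deposit is not given in the sources used here, and no doublet caller was run here. The cell filter asked for 200 to 3000 genes and no more than 10% of UMIs from mitochondrial genes. Gates used 8 markers per list, with no complement gene among them. UMIs were summed per library and gate (at least 10 cells) and tested with edgeR 4.0.16 in R 4.3.3 (TMM, quasi-likelihood, Benjamini-Hochberg over all genes, threshold 0.05), with DESeq2 1.42.0 as an alternative. Other values came from Python 3.11.15, pandas 2.3.3, numpy 2.4.6 and scipy 1.17.1. The fits were also run on simulated sums, and no error rate from them is given here. Each group has 2 mice. Intervals are exact binomial ones at 95%, floors are 3 UMIs, and both cover counting error only. The 8 genes, marker lists and other complement genes were chosen with earlier results of these data known. The genes named are the 8, where they passed the filter, with at most 6 other complement genes of the largest called change and the 3 genes most like each in level (mean CPM of at least 10), except a few genes that are not reported here. The alternatives were normalization, the low-count filter, DESeq2, each library left out, the replicate block, the library term, the gene limit and a minimum of 4 markers. The crossed pairing, library totals and the monocyte-like comparison were added after the data were seen.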

Additional observations from a re-analysis of the deposited data

How the results depend on the processing

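The group comparisons rest on 2 libraries each, so 1 library could turn most signs, and the cause was not tested. No call count changed under the replicate block except in monocyte-like cells, where 3 genes were called, and the block turned Cfp in neutrophils to -0.0021. In the labels, same-numbered libraries are linked only by a number. Correlations of their deviations were -0.27 in macrophage-monocyte, -0.03 in neutrophil, -0.24 in resident-like and 0.23 in lymphocyte gates. Their make-up was closer in the share of neutrophils among kept cells. This was 4.20% in Control 1 and 4.31% in hucMSC-Exo 1, against 13.9% in Control 2 and 23.7% in hucMSC-Exo 2. A crossed pairing called 10 genes in the macrophage-monocyte gate and 3 in the resident-like gate. Without a low-count filter, 25 genes were called in the macrophage-monocyte, 6 in the neutrophil, 17 in the resident-like and 34 in the monocyte-like gate and 5 in the interaction, where Cfp became -0.0041. DESeq2 called 3 genes in monocyte-like cells and 0 in the interaction, and RLE size factors called 3 in the latter.

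Leaving out 1 library gave 1 to 41 calls in the macrophage-monocyte gate (41 without Control 2), 0 to 6 in neutrophils, 3 to 16 in resident-like cells and 0 to 194 in monocyte-like cells (194 without Control 2). In the macrophage-monocyte gate the log2 fold changes ran from -0.78 to 0.063 for C1qa, -0.92 to 0.26 for C1qb, -0.80 to 0.015 for C3, -2.42 to 0.14 for Cfb, -0.14 to 0.046 for Cfp, -0.38 to 0.21 for C3ar1 and -0.16 to 0.90 for C5ar1. In neutrophils they ran from -1.56 to 0.14 for C3, -1.17 to 1.23 for Cfp and -0.34 to 0.53 for C5ar1. In resident-like cells they ran from -0.37 to 0.32 for C1qa, -0.44 to 0.62 for C1qb, -0.54 to 0.15 for C1qc, -1.46 to 1.13 for Cfb, -0.47 to 0.35 for Cfp, -0.40 to 0.10 for C3ar1 and -0.38 to 0.18 for C5ar1. In monocyte-like cells they ran from -0.95 to 0.18 for C3, -0.34 to 0.68 for C3ar1 and -0.40 to 1.62 for C5ar1.

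Between gates, C3 in macrophage-monocyte cells over neutrophils turned to 0.13 with DESeq2, 0.16 without the filter, 0.044 with 4 markers and 0.26 with library totals, and ran from -0.48 to 0.54 with 1 library left out. In neutrophils over lymphocytes, C3ar1 turned to 1.32 with DESeq2 and C1qc ran from -3.43 to 2.85. Calls numbered 650 (without Control 2) to 1773 for dendritic cells and 973 (without hucMSC-Exo 2) to 1688 for resident-like over monocyte-like cells, where DESeq2 gave 1093 and leaving out the library term 1141. The osteoclast-like comparisons moved most. Against resident-like cells there were 172 (without hucMSC-Exo 1) to 485 calls, 2644 with no upper gene limit and 171 with 4 markers, which turned Cfb to 0.72. C3 ran from -0.82 to 0.21 and Cfb from -7.23 to 0.41. Against monocyte-like cells there were 116 (without hucMSC-Exo 1) to 515 calls, 335 with DESeq2, 3062 with no upper limit, which turned C1qb to -0.42 and Cfp to -0.39, and 128 with 4 markers, which turned Cfb to 0.46 and C3ar1 to 0.27. Cfb ran from -7.40 to 0.041.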
